A study of Rattus norvegicus with 10 samples.

Results

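Wide captured regions are the autosomal regions of the methyl-capture table that are at least 2000 bp long, the length being the end minus the start given in the row name. They were 1868 of the 574544 regions in the table and of the 571404 regions on the autosomes. Another 66 regions of this length lie on chromosome X and were not included. Length alone chose the regions, with no direct use of their tag counts or of the difference between the groups. The length itself came from merged calls between pairs of libraries, as described below. The choice is thus not independent of tag counts or of differences between libraries.

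The samples were from male Sprague-Dawley rats with electrodes implanted in the left lateral amygdala. In the status epilepticus (SE) group the amygdala was stimulated electrically to evoke SE, which was then stopped with diazepam. Control rats were sham operated, with no stimulation. DNA came from a piece of the left hippocampus with the CA3 field and the dentate gyrus, taken 3 months after SE. The labels call it dorsal hippocampus. By then all stimulated rats had spontaneous seizures, so the effects of stimulation, SE, diazepam and seizures cannot be told apart. There was 1 library per rat, with control rats 1 to 5 and SE rats 6 to 10, of which rats 2 and 7 carry the note discarded, leaving 4 rats per group. Such tissue holds neurons, glia and vessels, and a change in the mix of cells cannot be told apart from a change of methylation within them.

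Methylated cytosines in the rat genome lie mainly in CpG dinucleotides, and most CpG sites outside CpG islands and active regulatory elements carry the mark. In methyl-capture, sheared DNA is bound by the methyl-CpG binding domain of a protein that holds methylated double-stranded DNA, and the eluted fragments are sequenced. A tag count therefore rises with the number of methylated CpG sites in a stretch, with the share of cells that carry the methylation and with the number of copies of the sequence in the genome, and it does not give the level of a single cytosine. Repeated sequences in mammalian genomes are usually methylated, and copies that the assembly has merged add their tags at 1 place.

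The regions are merged from intervals that the peak caller reported when it set 1 library against another, so a long region is a run of overlapping calls and not a unit of known biology. Whether the discarded libraries entered these calls is not given in the sources used here. Positions are those of the table, taken as RN4, and no annotation of that build was used here, so regions are named by position only.

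The libraries used held between 5499370 and 7179519 tags. All 1868 wide regions passed the filter of at least 70 tags summed over these 8 libraries, against 289626 of the 569536 shorter autosomal regions. Mean tags per library ranged from 18 to 4899 in the wide regions, with a median of 48.4, and the median of the shorter regions was 8.75. Counting error is thus smaller in a typical wide region than in a typical shorter one. Rat 7 stood apart with 14655629 tags, and its level in the wide regions is given separately. Normalized counts below are CPM over the tested regions after TMM scaling, and for rats 2 and 7 the CPM without a TMM factor.

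The wide regions were short for the most part. Their median length was 2333 bp, 1513 lay below 3 kb, 270 between 3 and 5 kb, and 85 reached 5 kb or more. Together they covered 5121 kb, or 1.71% of the length of all autosomal regions. At the boundary, the first members in genome order at exactly 2000 bp were chr1:46547121-46549121, chr1:65187057-65189057 and chr1:206548667-206550667, with 5.20, 3.24 and 7.89 normalized counts per kb. The longest regions left out were chr3:3607291-3609290 and chr4:68981-70980 at 1999 bp and chr18:38714533-38716531 at 1998 bp, with 4.93, 10.0 and 13.1 normalized counts per kb. Densities on either side of the limit overlapped.

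Tag density separated the wide regions into a large group near the level of all other regions and a long upper tail. The median was 4.62 normalized counts per kb in the wide regions and 4.41 in the shorter ones, while the 95th percentiles were 24.6 and 6.17. Density rose with length. The median was 4.52 normalized counts per kb below 3 kb, 6.46 between 3 and 5 kb and 17.2 at 5 kb or more.

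**Figure D1:**
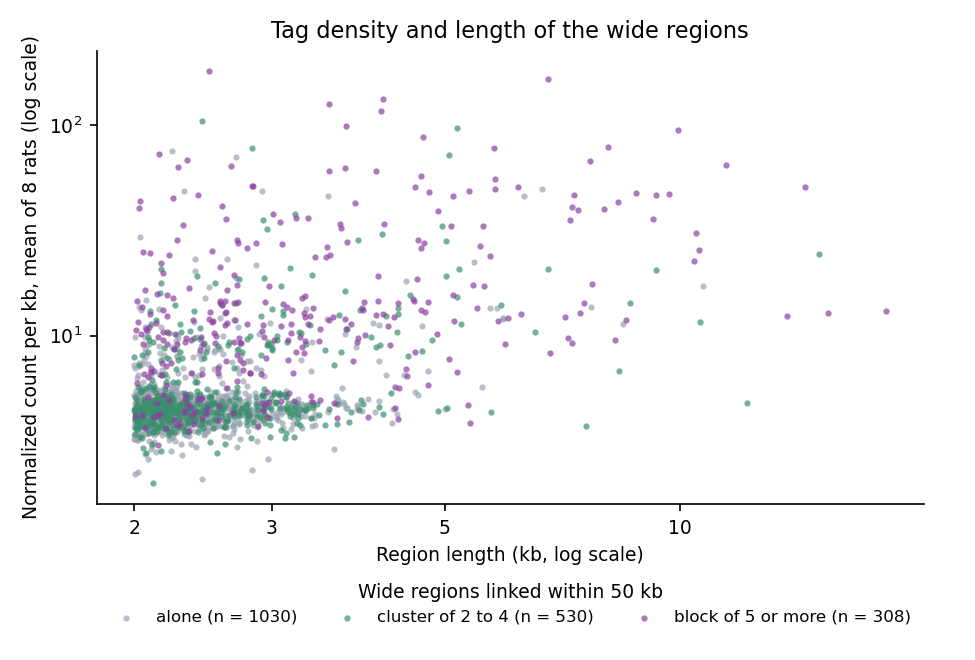
Each point is 1 of the 1868 wide regions, with its length in kb on the x axis and the mean normalized count per kb of the 8 rats on the y axis, both on log scales, coloured by the number of wide regions linked at gaps of at most 50 kb. Most points form a band near 4.5 normalized counts per kb, and regions in blocks of 5 or more reach from 3.03 to 180.5.

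The summed tags of the wide regions made up 3.82, 3.92, 4.17 and 3.98% of autosomal tags in control rats 1, 3, 4 and 5, and 3.83, 3.70, 3.67 and 3.69% in SE rats 6, 8, 9 and 10. The groups overlapped through control rat 1 and SE rat 6, with means of 3.97 ± 0.150% and 3.73 ± 0.0729% (SD, n = 4 each). Tags per base in wide regions were 2.29, 2.35, 2.51 and 2.39 times those in shorter regions in the control rats and 2.30, 2.21, 2.20 and 2.21 times in the SE rats. With the blocks described below left out, the ratio was 1.42 ± 0.0165 in the control rats and 1.44 ± 0.0235 in the SE rats (SD, n = 4 each), and the groups overlapped.

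Wide regions lay close together. Of the 1868, 838 (44.9%, 95% Wilson interval 42.6 to 47.1%) had another wide region within 50 kb, whereas 9.29% of shorter autosomal regions had a wide region within that distance. The interval treats neighbours as independent, which they are not. The median gap between successive wide regions was 212.8 kb, the lower quartile 27.0 kb and the smallest gap 2 bp, and 21 of the 1848 gaps were at most 100 bp, so that some neighbours are parts of 1 captured stretch.

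Linked at gaps of at most 50 kb, the wide regions formed 1030 single regions, 232 clusters of 2 to 4 that held 530 regions, and 33 blocks of 5 or more that held 308 regions. The blocks were defined after the clustering had been seen. They held 16.5% of the wide regions on 13 of the 20 autosomes. Median density was 4.47 normalized counts per kb in single regions, 4.54 in clusters of 2 to 4 and 11.7 in blocks.

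Chromosomes differed in their share. Chromosome 16 had 7.37 wide regions per 1000 autosomal regions, chromosome 12 had 6.65 and chromosome 20 had 6.52, and the lowest were chromosome 11 with 1.65 and chromosome 2 with 1.78. On chromosome 16, 67 of the 149 wide regions lay in blocks. None of the 116 on chromosome 12 and none of the 111 on chromosome 10 did, so that a high count did not go with blocks on every chromosome.

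The largest block, chr16:27401080-27933103, held 45 wide regions over 532 kb with a median of 45.0 normalized counts per kb. The next in size were chr17:53436055-53795373 with 31 regions over 359 kb, chr2:1114483-1394209 with 24 over 279.7 kb and chr17:49551004-49701286 with 16 over 150.3 kb. Their median densities were 12.7, 30.8 and 7.18 normalized counts per kb. Wide regions covered between 33.0 and 47.2% of these 4 spans, and the rest was shorter regions or sequence outside the table.

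The densest members all lay in the chromosome 16 blocks. They were chr16:27700088-27702577 with 180.5 normalized counts per kb, chr16:27549735-27556514 with 167, chr16:27248857-27253024 with 133 and chr16:27573249-27576795 with 126. In the first, control rats 1, 3, 4 and 5 had 437, 458, 507 and 492 normalized counts and SE rats 6, 8, 9 and 10 had 455, 422, 414 and 409. The groups overlapped in all 4 regions, and the adjusted p lay between 0.743 and 0.949. The log2 fold changes were -0.16, -0.11, -0.050 and -0.048 in the order given. Under loess offsets they turned to 0.14, 0.25, 0.26 and 0.25, and the last 3 had unadjusted p-values of 5.08e-06, 4.71e-05 and 1.58e-04 in edgeR, with adjusted p-values of 0.0538, 0.199 and 0.362. The direction in the densest regions thus depended on the scaling. The sparsest were chr7:19415665-19417777 with 1.98, chr15:48890958-48893403 with 2.08 and chr1:33247261-33249265 with 2.19 normalized counts per kb, at mean levels of about 4 to 6 normalized counts per group. In none of these 3 did the groups separate.

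The longest members were chr17:53638261-53656637 (18376 bp), chr17:53487630-53503114 (15484 bp), chr13:70246465-70261533 (15068 bp), chr2:1323384-1337855 (14471 bp) and chr14:21921940-21935668 (13728 bp). The longest had 237, 259, 272 and 251 normalized counts in the control rats and 223, 247, 236 and 206 in the SE rats, which overlapped (log2 fold change -0.16 ± 0.09 SE, adjusted p = 0.771). In the second every SE rat, at 182 to 192, lay below the lowest control rat, which also rounds to 192, and the log2 fold change was -0.18 ± 0.10 (adjusted p = 0.746). The third had 321, 421, 449.6 and 417 against 329, 331, 351 and 324, where control rat 1 lay below every SE rat. The log2 fold changes of the last 3 were -0.27 ± 0.09, -0.22 ± 0.08 and -0.31 ± 0.10, and each had an unadjusted p below 0.01 with an adjusted p of 0.536 to 0.581. Under loess offsets the log2 fold changes of the first 4 turned to 0.094, 0.064, 0.024 and 0.11 and that of the fifth was -0.088, none with an unadjusted p below 0.01.

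The comparison of SE with control rats asked whether methylation differs 3 months after SE. Of the 1868 wide regions, 90 were hypomethylated in SE rats at an unadjusted p below 0.01, where 1.07% of all 291987 tested regions were, and 23 were hypermethylated, where 0.584% of all were. The members' shares were 4.82% and 1.23%. This background was not matched for tags. Of the 289626 shorter tested regions, 276168 fell in the class of up to 25 tags per library, against 7 wide regions. With less counting error, smaller changes can be called in wide regions. Called decreases had a median log2 size of 0.43 in wide regions and 1.06 over the whole tested set. For called increases the medians were 0.55 and 0.98. The part of tag count in these shares was not tested. Every SE rat lay below every control rat in 106 wide regions, against a background of 1.94%, and above in 54, against 1.69%. At an adjusted p below 0.05 there were 5 wide regions, all lower in SE and all neighbours, with a background of 0.00616% in either direction. The split by direction depended on the scaling and the libraries. Loess offsets on mean count gave 38 lower and 38 higher, and all 10 libraries gave 5 lower and 0 higher, with 61 at an unadjusted p below 0.05 in edgeR.

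Direction followed position. In blocks, 63 of the 308 wide regions were hypomethylated and 1 was hypermethylated, and the median log2 fold change was -0.19. Outside blocks, 27 of 1560 were hypomethylated and 22 hypermethylated, with a median of 0.074. Over all wide regions the median was 0.036, against 0.0024 over all tested regions. The block median lay between -0.19 and -0.18 under size-factor, upper-quartile and library-total scaling and was -0.037 under loess offsets. Blocks are also dense, and the 374 densest wide regions, 216 of them in blocks, held 70 of the 90 hypomethylated ones. The part of density in this result was not tested.

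**Figure D2:**
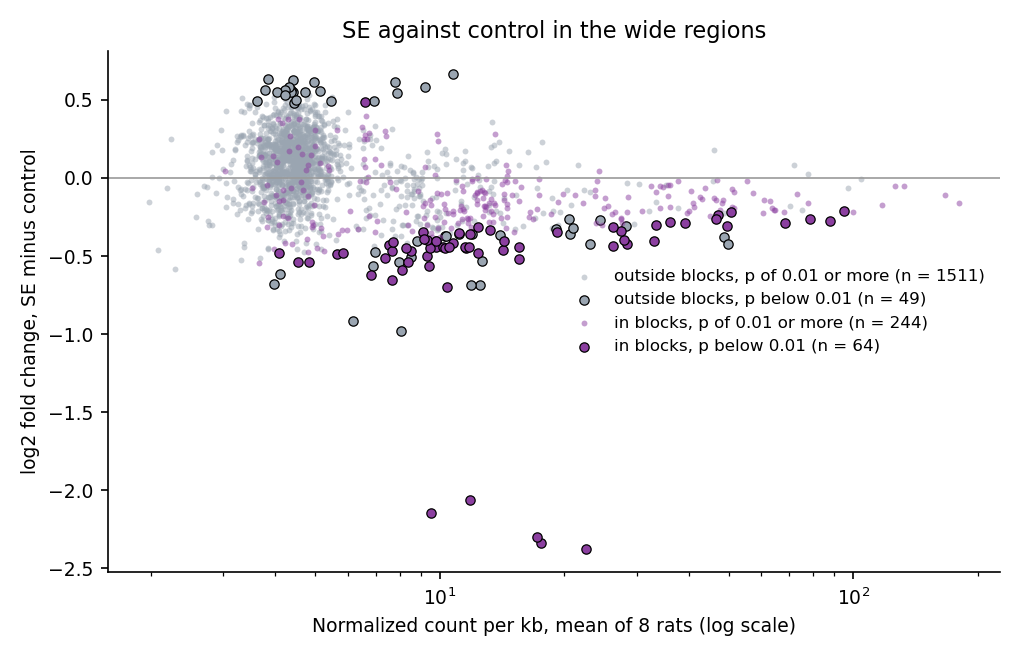
Each point is 1 wide region, with its mean normalized count per kb on a log x axis and its log2 fold change, SE minus control, on the y axis. Outlined points have an unadjusted p below 0.01. Those below 0 reach into the dense regions and include 63 in blocks, and the 23 above 0 sit at a median of 4.45 normalized counts per kb.

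Summed over the blocks, wide regions took 1.97, 2.13, 2.34 and 2.16% of autosomal tags in control rats 1, 3, 4 and 5 and 1.95, 1.87, 1.84 and 1.81% in SE rats 6, 8, 9 and 10. Every SE rat was below every control rat, though rats 1 and 6 nearly met. The sum was weighted to the blocks with most tags. Control means were 11243 normalized counts in chr16:27401080-27933103, 5229 in chr2:1114483-1394209, 3176 in chr16:27193230-27347677 and 2011 or less in every other block. In chr2:1114483-1394209 and chr16:27193230-27347677 the groups overlapped. The 4 densest wide regions, all in the chromosome 16 blocks, changed sign under loess offsets. The separation of the sum thus does not describe every block. Outside blocks the shares were 1.85, 1.80, 1.84 and 1.82% against 1.88, 1.83, 1.83 and 1.88%, and the groups overlapped. Of the 33 blocks, 27 had a negative median log2 fold change, and 12 had summed levels that did not overlap, all lower in SE. Among all tested regions, taken singly, 49.7% had a negative log2 fold change. Every SE rat was below every control rat in 1.94% of them and above in 1.69%. No such share was computed for sums over other stretches, so the block counts have no matched background. Of the 719 shorter tested regions inside the blocks, 36 (5.01%) were hypomethylated and 5 (0.695%) hypermethylated. Over all shorter tested regions the shares were 1.02% and 0.579%, so the hypermethylated share was near the background. These shorter regions lie in the same stretches as the wide ones and are not separate support. Control rat 4 was the highest rat in 16 blocks and SE rat 10 the lowest in 15.

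The 5 regions past the adjusted threshold fill 1 block, chr1:215552711-215604105. Its wide regions summed to 769, 830.5, 1595 and 794 normalized counts in control rats 1, 3, 4 and 5 and to 503, 117, 107 and 99.3 in SE rats 6, 8, 9 and 10. Control rat 4 stood far above the other controls, and SE rat 6 lay between them and the other SE rats. The log2 fold changes of the 5 regions ran from -2.37 to -2.06, the largest adjusted p in edgeR being 1.39e-12. In DESeq2 only chr1:215552711-215560977 kept an adjusted p below 0.05, at 0.0399, and the other 4 had 0.104 to 0.187. With all 10 libraries the adjusted p in edgeR was 0.914 for each of the 5. Without this block no wide region passed the adjusted threshold in the quasi-likelihood or the exact test of edgeR and 1 did in DESeq2, while 277 had an unadjusted p below 0.05 in the first, 203 in the second and 189 in the third.

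A set of 4 blocks showed moderate and even differences. In chr13:30427640-30493474 all 7 wide regions were hypomethylated, with sums of 312, 345, 402 and 437 normalized counts in the control rats and 250.4, 292, 294 and 278 in the SE rats. In chr13:19118428-19216979, 7 of 10 were, with 416, 445, 503 and 509.5 against 333, 356, 355 and 331. In chr17:49551004-49701286, 10 of 16 were, with 577, 629, 729.6 and 763 against 522, 535, 527 and 470.5. In each of these the SE rats lay below the controls without overlap, at 74.5, 73.4 and 76.1% of the control mean. None of their wide regions passed the adjusted threshold, the lowest adjusted p in the quasi-likelihood test being 0.467, 0.282 and 0.356. At an unadjusted p below 0.01 the exact test of edgeR called 4, 6 and 6 of them, and DESeq2 6, 6 and 7. Neighbouring regions in the same rats are not independent.

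In chr18:38737111-38846970, 4 of 8 wide regions were hypomethylated, with sums of 198, 205, 251 and 266 normalized counts in the control rats and 158, 176, 174 and 164 in the SE rats. Its region chr18:38737111-38739285 had 26.4, 25.0, 29.2 and 31.4 against 18.0, 17.3, 17.1 and 16.6 normalized counts (log2 fold change -0.70 ± 0.15 SE, adjusted p = 0.126). The shorter tested regions inside the 4 blocks moved with the wide ones, with median log2 fold changes of -0.40, -0.46, -0.40 and -0.31 in the order given. In these 4 blocks the discarded libraries went against the groups. SE rat 7 had 533, 710.3, 1135 and 379 normalized counts, above every control rat, and control rat 2 had 123, 168, 247 and 90.2, below every SE rat. The block chr14:48738300-48780735, with 2 of 6 wide regions hypomethylated, had the same order. Its sums were 230, 252, 275 and 313 in the control rats and 215, 218, 207 and 205 in the SE rats. Rat 7 had 461 there and rat 2 had 106.

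**Figure D3:**
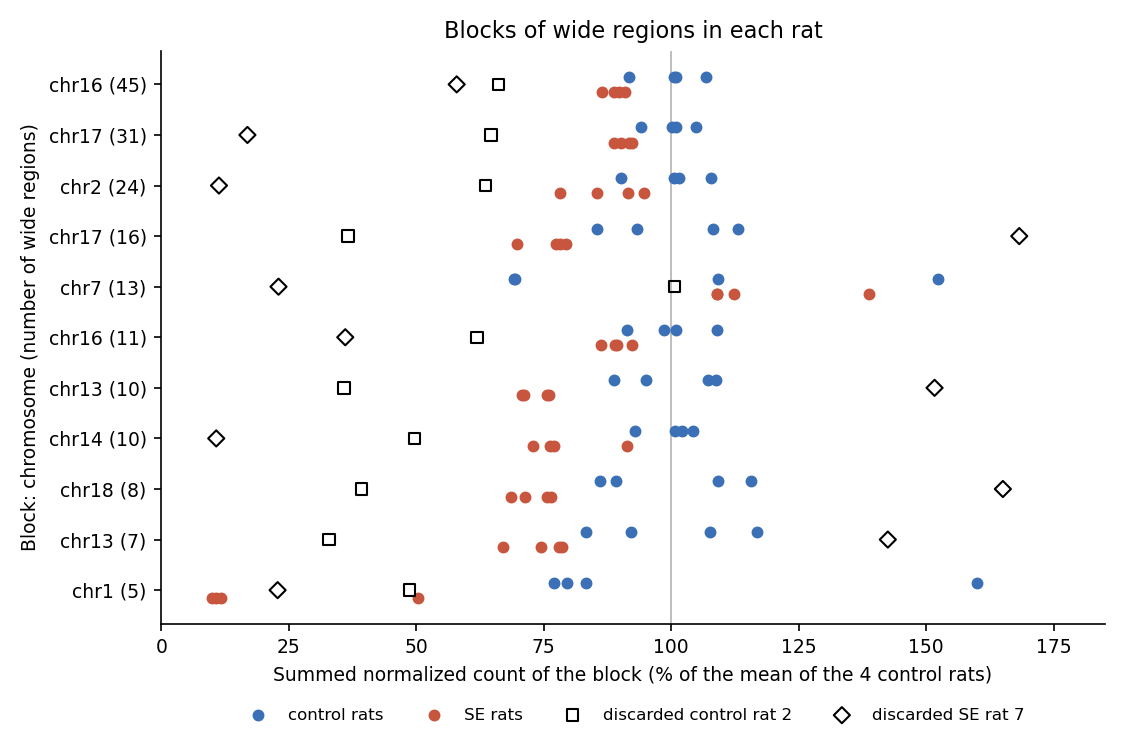
Each row is a block, named by chromosome with the number of its wide regions, and the x axis is its summed normalized count as a percentage of the mean of the 4 control rats. Filled points are the control and SE rats used, and open symbols are the discarded rats 2 and 7. Shown are blocks with 10 or more wide regions, or with a share of at least 0.5 of them hypomethylated. Rat 7 lies above the controls in chr17 (16), chr13 (10), chr18 (8) and chr13 (7) and far below them in chr17 (31), chr2 (24) and chr14 (10).

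In chr16:27401080-27933103 the control rats had 10302, 11298, 12015 and 11357 normalized counts and the SE rats 10213, 9987, 10097 and 9722. The groups did not overlap, the SE mean was 89.0% of the control mean, and 9 of 45 wide regions were hypomethylated. In chr17:53436055-53795373 the sums were 1891, 2030.4, 2109 and 2015 against 1813, 1856, 1844 and 1787, also without overlap, yet no wide region had an unadjusted p below 0.01 in either test of edgeR or in DESeq2, and 2 of 31 had an unadjusted p below 0.05. In chr2:1114483-1394209 the groups overlapped, with 4715, 5313, 5634 and 5255 against 4951, 4782, 4473 and 4084, and 3 of 24 regions were hypomethylated.

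In chr14:21888461-21963020, 5 of 10 wide regions were hypomethylated, with sums of 529.7, 575, 596 and 583 normalized counts against 440.0, 521, 435 and 416. The groups did not overlap there. The block chr7:105587653-105721820 held the 1 hypermethylated region found in blocks, and its sums were 290.3, 132, 208 and 132 in the control rats and 208, 265, 214 and 208 in the SE rats, where the spread among controls covered the SE rats.

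Outside the chromosome 1 block, the smallest p with groups apart was that of chr20:25103138-25109803, a single region of 6665 bp. It had 324, 381, 402 and 413 normalized counts in the control rats and 300.4, 297, 293 and 240.5 in the SE rats (log2 fold change -0.43 ± 0.09 SE, adjusted p = 0.115). Discarded SE rat 7 had 1099 and discarded control rat 2 had 144. This region was chosen after its values were seen.

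The hypermethylated regions were spread over 13 chromosomes, with a median length of 2488 bp. The region with the smallest p, chr1:206512367-206516117, had 31.2, 39.3, 25.1 and 29.6 normalized counts in the control rats and 40.7, 39.8, 50.9 and 66.1 in the SE rats (log2 fold change 0.66 ± 0.14 SE, adjusted p = 0.115). SE rats 6 and 8 lay just above control rat 3. This call depended on the setting. Its adjusted p in edgeR was 0.0024 under loess offsets, 0.013 where 10 or more counts per library were required and 0.031 without SE rat 8. Without SE rat 10 the adjusted p was 0.712, and with all 10 libraries 0.944. The other 2 wide regions within 50 kb of chr1:206512367-206516117 were also among the 23, and in both of them the groups overlapped.

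The region chr7:11241340-11245618 had 15.2, 13.6, 12.7 and 10.1 normalized counts against 20.8, 19.4, 18.3 and 21.0 (log2 fold change 0.63 ± 0.17, adjusted p = 0.423). For chr1:85563981-85566631 the values were 12.1, 8.65, 10.6 and 10.1 against 13.9, 18.2, 14.2 and 17.2, with a log2 fold change of 0.62 ± 0.18. For chr20:5322634-5325875 they were 13.5, 11.9, 7.76 and 11.6 against 14.8, 15.6, 16.9 and 17.6, with a log2 fold change of 0.53 ± 0.18. In all 3 every SE rat lay above every control rat, and none passed the adjusted threshold.

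The counts of calls depended on single rats. Without control rat 1, which was the lowest control in 21 of the 33 blocks, there were 139 hypomethylated and 53 hypermethylated wide regions, and 19 had an adjusted p below 0.05. Without control rat 5 there were 51 hypomethylated, and without SE rat 10 there were 52 hypomethylated and 13 hypermethylated. Hypermethylated regions numbered 12 without control rat 3, 15 without control rat 4 and 36 without SE rat 8, where 8 had an adjusted p below 0.05. Over all tested regions, the shares with 1 rat left out ran from 0.788 to 1.32% hypomethylated and from 0.508 to 0.684% hypermethylated.

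Spread between rats of 1 group was given as the coefficient of variation (CV) beyond the counting error, pooled over both groups. It was 7.93% in the median wide region and 15.2% in the median shorter tested region, which also hold fewer tags. At 25 to 50 tags per library the medians were 6.99% in 1000 wide and 10.9% in 12768 shorter regions. At 50 to 100 tags they were 8.89% and 10.7%, at 100 to 200 tags 10.6% and 9.02%, and over 200 tags 6.99% and 9.53%. Wide regions were thus the less variable in 3 of the 4 classes. A CV over 30% was found in 38 wide regions and over 50% in 9.

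**Figure D4:**
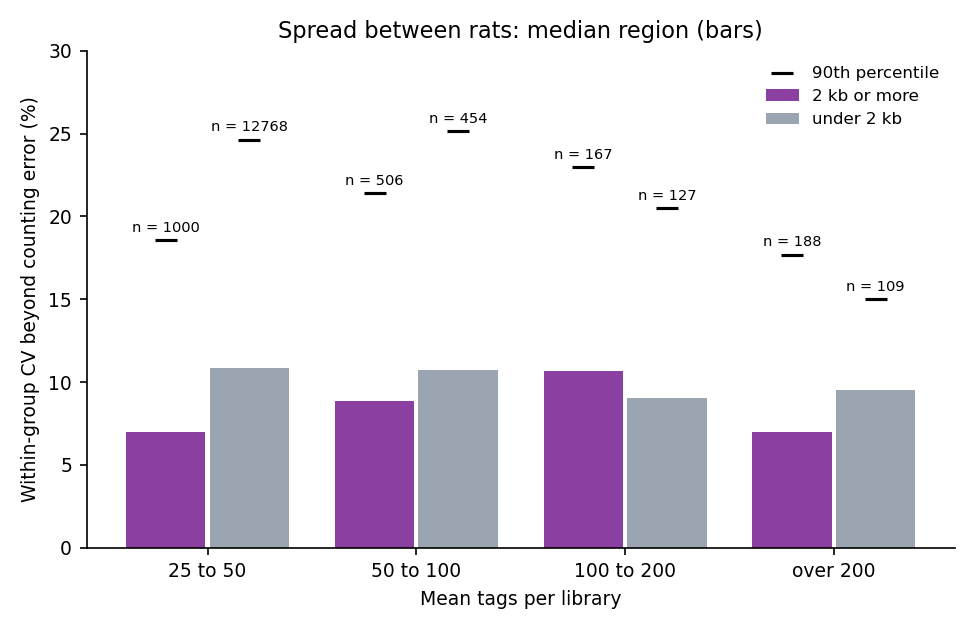
Bars give the median within-group CV beyond counting error, in percent, for wide and shorter regions in 4 classes of mean tags per library, and black marks give the 90th percentile, with the number of regions above. At 100 to 200 tags the wide regions have the higher median, 10.6% against 9.02%, and in the other 3 classes the lower.

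The largest spread was that of a pair on chromosome 20. In chr20:2783298-2786496 control rats 1, 3, 4 and 5 had 23.9, 0, 27.7 and 0 normalized counts and SE rats 6, 8, 9 and 10 had 5.09, 25.2, 0 and 30.8. In chr20:2791779-2794713 they had 25.6, 0, 19.7 and 0 against 10.6, 25.2, 0 and 25.4. Rats 3, 5 and 9 had no tag in either region, rat 6 was intermediate, and both groups held rats with and without tags. These were the only wide regions with a library at 0 among the 8. A count of 0 allows a level of up to 3 tags, where the rats with tags had 22 to 161.

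The region chr5:139496453-139499356 had 57.1, 29.2, 10.3 and 27.1 normalized counts in the control rats and 11.3, 31.9, 11.3 and 8.98 in the SE rats (log2 fold change -0.98 ± 0.23 SE, adjusted p = 0.225). Control rat 4 lay with 3 of the SE rats, and SE rat 8 with the other controls. Its neighbour chr5:139519398-139521503 had 23.0, 21.5, 6.73 and 16.3 against 8.56, 13.9, 8.69 and 5.16, with rat 4 again low. The other regions with a CV over 50% were 4 of the 5 in the chromosome 1 block, at 51.8 to 54.9%, and chr1:70740783-70742874 and chr9:1064837-1067939. Of the last 2, the former had 20.3, 6.67, 42.2 and 23.2 normalized counts against 19.4, 21.8, 8.93 and 17.4, and control rat 4 was the highest and control rat 3 the lowest. In the latter control rats 3 and 4, at 77.4 and 63.4, stood above rats 1 and 5, at 23.2 and 27.7, and above the SE rats at 40.9, 25.4, 21.5 and 30.4.

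**Figure D5:**
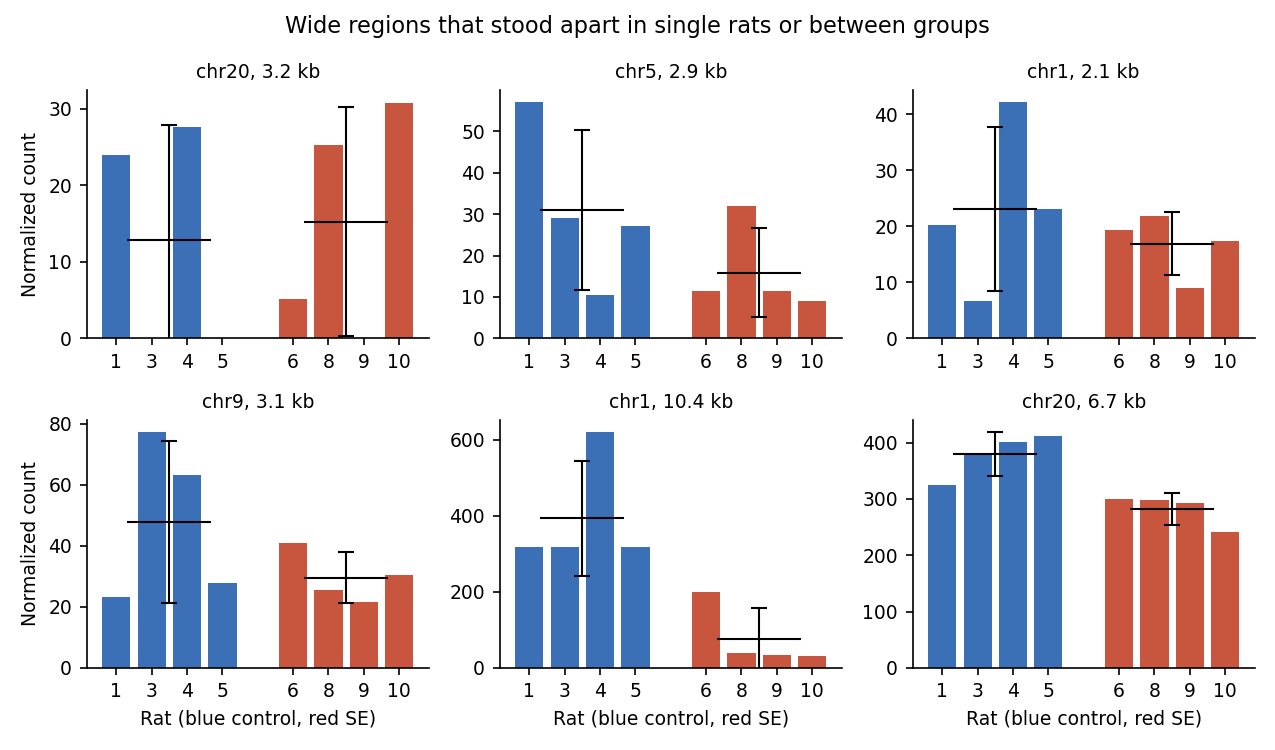
Bars give the normalized count of each of the 8 rats in 6 wide regions, blue for control and red for SE, and black lines give the mean and SD of each group of 4. The chr20 region of 3198 bp is at 0 in rats 3, 5 and 9. In the chr20 region of 6665 bp, with a CV of 9.99%, every SE rat lies below every control rat.

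The discarded libraries took no part in the fit. Relative to the mean of the 8 rats used, SE rat 7 had a median of 1.67 in the wide regions and 0.980 in shorter tested regions, and control rat 2 had 1.01 and 0.933. Rat 7 fell under 0.5 of the mean in 352 wide regions and over 2 times the mean in 624, against 96 and 8 for rat 2. In blocks the median of rat 7 was 0.301 and outside them 1.79. Rat 7 lay under 0.5 of the mean in 19 of the 33 blocks and over 1.5 times in 10. Of the 90 hypomethylated regions, rat 7 was below rat 2 in 46 and above in 44, and of the 23 hypermethylated regions it was above in 13. Of all 1868 wide regions it was below rat 2 in 606 and above in 1262. Rat 2 was below every control rat used in 86 of the 90 hypomethylated regions and in none of the 23 hypermethylated ones, where it was so in 590 of all 1868 wide regions and in 244 of the 308 in blocks.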

How the data were processed

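The authors deposited raw tag counts for each region and each rat. Per the labels and the methods, tags were aligned to rat genome RN4 with BWA, pairs of libraries were compared with MACS, differing regions were merged with BEDTools, and duplicate tags were removed before counting. The table does not name the build. Every column belonged to a labelled rat.

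Wide regions were found from the row names. The members and lists were chosen with earlier results of these data known. Regions below the 50th percentile of the count summed over the 8 libraries used (70 tags) were removed, and 291987 regions were fitted together by edgeR 4.0.16 under R 4.3.3, using TMM scaling, a quasi-likelihood F test (two-sided) and group as the only term. An unadjusted p below 0.01 is the threshold of the methods, and Benjamini-Hochberg adjustment was over all tested regions, with a threshold of 0.05. The standard error of a log2 fold change is its size over the root of F. The CV beyond counting error is the square root of the pooled within-group variance less the mean, divided by the squared mean, on normalized tags. Negative values were set to 0. The Wilson interval is on a share of regions by position and treats regions as independent. The level that a count of 0 allows covers counting error only. The fit was tested on simulated data.

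Named regions were the 4 with the smallest p in each direction with groups apart, the 5 longest, the 4 densest and 3 sparsest, the 4 with the largest CV, the 4 largest clusters, and 3 on either side of the length limit. Other named regions and blocks were chosen after their values were seen. Alternatives were edgeR's exact test, DESeq2 (version 1.42.0), 3 other scalings, loess offsets (limma version 3.58.1), 2 other filters, all 10 libraries, each rat left out, other lengths and other distances. Nothing says how rats relate by litter or day.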

Additional observations from a re-analysis of the deposited data

Results flagged for a closer look

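In groups of 4 rats, a rat was marked where its gap to the nearest other rat took up more of the range of the group than Dixon's critical value at 95% allows. Of 92 groups examined 17 were marked. About 5% of groups would be marked by chance, and neighbouring regions are not independent. Some regions had been named for a large CV or for groups apart, so the 5% does not hold for them.

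SE rat 6 stood above the other SE rats in the share of autosomal tags in wide regions, at 3.83%, and in the density ratio of wide to shorter regions, at 2.30. In the chromosome 1 block chr1:215552711-215604105 control rat 4 stood above the other controls with a sum of 1595 normalized counts (1600 when rounded) and SE rat 6 above the other SE rats with 503. Within it, rat 4 had 271 in chr1:215583807-215592336, 621 in chr1:215573294-215583717, 136 in chr1:215601131-215604105 and 368 in chr1:215593007-215600722. Rat 6 had 83.7, 199.8 (200 when rounded), 42.1 and 117 in the same regions and 60.1 in chr1:215552711-215560977. Rat 4 and rat 6 thus stood apart across this block, and the calls there remained when either was left out.

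Elsewhere, SE rat 8 stood high in chr5:139496453-139499356 with 31.9 normalized counts and in the block chr7:105587653-105721820 with 265. SE rat 10 stood low in chr20:25103138-25109803 with 240.5 (240 when rounded). Control rat 3 stood high in chr1:206548667-206550667 with 16.1.

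The discarded SE rat 7, outside the comparison, had 3.52 tags per base in chr16:27700088-27702577. With duplicates removed, 2 tags per base is the most that both strands allow, and rat 7 exceeded it in 18 regions of the table, 1 of them wide, against 1 to 3 regions in each of the other libraries and none of them wide. In the block chr18:107651-239909 rat 7 reached 2.70 times the control mean, at 409 normalized counts against 152 ± 9.59 (SD, n = 4).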

How the results depend on the processing

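The counts of hypomethylated, hypermethylated and adjusted calls were 90, 23 and 5. Loess offsets, which scale each library along a smooth trend with mean count, gave 38, 38 and 7. Of these 76 calls 55 were shared with the 113 of the main test. Most regions behind that trend had few tags, 276168 shorter ones being in the class of up to 25 per library. How well the trend holds in the densest regions was not tested. All 10 libraries gave 5, 0 and 0. The exact test of edgeR gave 50 and 15, and DESeq2 gave 66 hypomethylated, 8 hypermethylated and 2 adjusted. Requiring 10 or more counts per library, which tested 1865 of the wide regions, gave 107, 23 and 14. Leaving out 1 rat gave 51 to 139 hypomethylated, 12 to 53 hypermethylated and 5 to 19 adjusted. Over all tested regions the hypomethylated and hypermethylated shares were 1.01 and 0.579% with loess offsets and 0.215 and 0.282% with all 10 libraries. They were 0.923 and 0.506% in the exact test, 0.349 and 0.139% in DESeq2 and 1.39 and 0.618% with the minimum of 10 counts. With 1 rat left out they ran from 0.788 to 1.32% and from 0.508 to 0.684%. At 1500 bp, 134 of 6463 regions were hypomethylated and 88 hypermethylated, and at 3000 bp 60 and 7 of 355 were. Without the blocks 27 were hypomethylated and 0 passed the adjusted threshold in edgeR, and without the chromosome 1 block 0 passed. These last settings were chosen after seeing the data.

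The median log2 fold change of 0.036 became 0.053 with upper-quartile scaling, 0.012 with the minimum of 10, 0.11 with all 10 libraries, 0.074 without blocks, 0.060 at 1500 bp and -0.087 at 3000 bp, and 0.025 to 0.058 with 1 rat left out. Loess offsets reversed the direction of chr17:53638261-53656637 (0.094), chr17:53487630-53503114 (0.064), chr13:70246465-70261533 (0.024), chr2:1323384-1337855 (0.11), chr16:27700088-27702577 (0.14), chr16:27549735-27556514 (0.25), chr16:27248857-27253024 (0.26) and chr16:27573249-27576795 (0.25). All 10 libraries reversed that of chr16:27700088-27702577 (0.079), chr7:19415665-19417777 (0.23), chr15:48890958-48893403 (0.21), chr1:33247261-33249265 (0.63), chr20:2783298-2786496 (-0.18) and chr20:2791779-2794713 (-0.070). With 1 rat left out the sign changed in chr7:19415665-19417777 (-0.37 to 0.0089), chr1:33247261-33249265 (-0.22 to 0.040) and chr20:2783298-2786496 (-0.31 to 1.00), none of which was called in the main test. The cause was not tested. Of 221 values for the 13 named regions that were called, 190 kept their side of the threshold and 29 lost it.

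The density ratio of 2.31 became 1.61 at 1500 bp, 4.23 at 3000 bp, 2.13 over tested regions and 1.43 without blocks, and 2.28 to 2.32 with 1 rat left out. The share of tags of 3.85% became 6.73, 2.23 and 5.38% in the first 3 of these, and 3.80 to 3.88% with 1 rat left out. The median CV of 7.93% became 30.5% with all 10 libraries, 8.69% at 1500 bp and 7.07 to 8.04% with 1 rat left out. The share with a neighbour, 44.9%, became 27.4% at 10 kb, 55.4% at 100 kb, 59.4% at 1500 bp and 51.3% at 3000 bp. The smallest decrease called at p below 0.01 had a log2 fold change of -0.21 among regions with a median of 199 tags per library, and the smallest increase 0.48 among regions with a median of 57.6.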
